A study of Mus musculus with 24 samples.

Results

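The 39 genes described here are mouse counterparts of autism risk genes that lie outside the synaptic receptor families. They were listed by name, with earlier results of these data known though with no measured value in the rule, and each matched 1 of the 18240 genes in the deposited table. By known function they were set into 16 chromatin regulators, 12 channel, adhesion and signalling genes that act at the membrane or in the cytoplasm, and 11 others. The others were 5 transcription factors or Mediator subunits and 6 genes of ubiquitin ligation, protein acetylation or RNA regulation.

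Genes found mutated in autism are largely of a nuclear kind and a neuronal kind. Nuclear ones remodel or mark chromatin and so set which genes a neuron transcribes, while the rest build the channels, contacts and signalling pathways through which neurons work. In the cortex both kinds are active in excitatory and inhibitory neurons, from fetal development into adult life.

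The tissue was prefrontal cortex of C57BL/6J mice of both sexes at postnatal day 40, profiled by bulk sequencing of messenger RNA. Mice heterozygous for an allele of Dyrk1a named I48X (Dyrk1a+/I48X, here HT) received vehicle, the antidepressant fluoxetine, which blocks serotonin reuptake, or the mood stabiliser lithium. Wild-type mice (WT) received vehicle. Each of the 4 arms had 6 libraries, 3 of each sex, named here by arm, sex and number. WT mice on either drug were not analysed here, the sources used here give neither doses nor the length of treatment, and nothing in the labels says that libraries came from separate animals. The p-values therefore measure the spread between these libraries, which may be partly technical.

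Libraries held between 24133344 and 35940460 recovered reads. Levels are reads per gene after the authors' scaling between libraries (normalized reads). Transcripts of the mutated kinase gene Dyrk1a were not lower in HT and leaned higher. They ranged from 2254 to 2431 (median 2365) in HT vehicle and from 2088 to 2349 (median 2169) in WT vehicle, a log2 difference of 0.10 ± 0.037 (SE; adjusted p = 1, limma). In each HT arm all 6 libraries lay above the WT mean. Against WT vehicle the log2 difference was 0.17 ± 0.037 in HT fluoxetine (adjusted p = 0.31, limma) and 0.15 ± 0.037 in HT lithium. The HT fluoxetine and WT ranges did not overlap, which held for 0.232% of all genes. No such difference was called, and its cause was not tested. The transcript level was therefore no check of the genotype labels. All 6 lithium libraries and HT fluoxetine female 3 carry another batch label than the other 17, so lithium and that batch largely cannot be told apart. The 10 excitatory neuron markers were all measured, at unequal levels. Among them Slc17a7, the vesicular glutamate transporter, stood at 28907 to 53751 over the libraries and Foxp2 at 186 to 750. In 6 libraries the 12 markers of the olfactory bulb, a forebrain region next to the prefrontal cortex, were high. These bulb-high libraries were HT fluoxetine female 1 and male 1, HT lithium male 1, HT vehicle female 2 and male 3, and WT vehicle female 2. Eomes, a bulb projection neuron factor, stood at 1237 to 2136 in them and at 0 to 603 in the other 18. Their bulb score, the mean log2 deviation of the 12 markers, was 2.15 to 2.69, against -2.89 to 1.28 elsewhere. By arm the score averaged 0.34 ± 1.44 (SD, n = 6) in WT vehicle and -0.36 ± 2.03 in HT vehicle. In HT fluoxetine it averaged 0.36 ± 2.08 and in HT lithium -0.33 ± 1.99.

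All 39 genes were expressed, and all passed the filter of a mean of 10 normalized reads. Mean levels ran from 137 for Katnal2, a katanin-like microtubule-severing protein gene, to 24036 for Ank2, which encodes the membrane scaffold ankyrin-B. Per kilobase of exon, 34 of the 39 lay above the median protein-coding gene of 143. The highest was Nckap1 (2856 normalized reads per kilobase), a subunit of the actin-regulating WAVE complex. Scn2a (865), a sodium channel of excitatory neurons, and Cul3 (690), the scaffold of a ubiquitin ligase family, followed. The lowest were Katnal2 (33.8), the Polycomb-related gene Asxl3 (34.2) and Naa15 (88.7), a subunit of an N-terminal acetyltransferase. The median was 198 per kilobase for the 16 chromatin regulators and 388 for the 12 channel, adhesion and signalling genes. The members are long: their median longest transcript was 8237 bases against 3464 for all tested protein-coding genes, and 25 of the 39 lay in the longest 10%.

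The effect of the Dyrk1a allele was compared between HT and WT mice on vehicle. No member was called: 0 of 39 passed an adjusted p of 0.05 in limma, edgeR or DESeq2, where limma called 0% of all 16825 genes tested. At an unadjusted p under 0.05 there were 2 of 39 members (2.7% of all genes). Point estimates leaned slightly low, with 30 of 39 below 0 (51.3% of all genes) and a median log2 fold change of -0.045 (-0.0024 over all genes). The median was -0.037 for chromatin regulators and -0.054 for channel, adhesion and signalling genes. For 28 of the 39 the 95% interval of the fold change lay within 1.2-fold either way.

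The member with the smallest p was Cul3. It ranged from 2837 to 3653 (median 3173) in HT vehicle and from 3263 to 3692 (median 3499) in WT vehicle, a log2 fold change of -0.13 ± 0.058 (adjusted p = 1, limma). In 5 of the 6 HT libraries Cul3 lay below the WT mean, but the ranges overlapped. Cntnap2, an adhesion molecule of the neurexin family that organises axonal potassium channels, ranged from 3460 to 3861 (median 3658) in HT vehicle and from 3703 to 3996 (median 3861) in WT vehicle. Its log2 fold change was -0.079 ± 0.037 (adjusted p = 1, limma). Dscam, another neuronal adhesion molecule, lay on chromosome 16 at 96590840 to 97170752 (GRCm38), 1895 kb from Dyrk1a. It ranged from 2424 to 2850 in HT vehicle and from 2641 to 2829 in WT vehicle (-0.074 ± 0.038, adjusted p = 1). Katnal2 (0.20 ± 0.11) and Asxl3 (-0.14 ± 0.087) had the next smallest p, both with adjusted p = 1. No member had HT and WT libraries that did not overlap (0.19% of all genes).

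The lean toward lower values was shared by other long transcripts. In the longest 10% of protein-coding transcripts 68.7% of 1469 genes were below 0 in this comparison, with a median of -0.027, and in the shortest 10% of them 37.8% were. With each library's own slope on transcript length as a covariate the members' median was -0.013 with 25 of 39 below 0, and without the 6 bulb-high libraries it was -0.017 with 26 below 0. With the bulb score as a covariate it was -0.063 with 28 below 0, and without HT vehicle male 3 alone it was -0.018. In the length slope itself WT vehicle averaged 0.0063 ± 0.017 (SD, n = 6) and HT vehicle -0.0079 ± 0.013. Its part in the lean was not tested further.

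**Figure D1:**
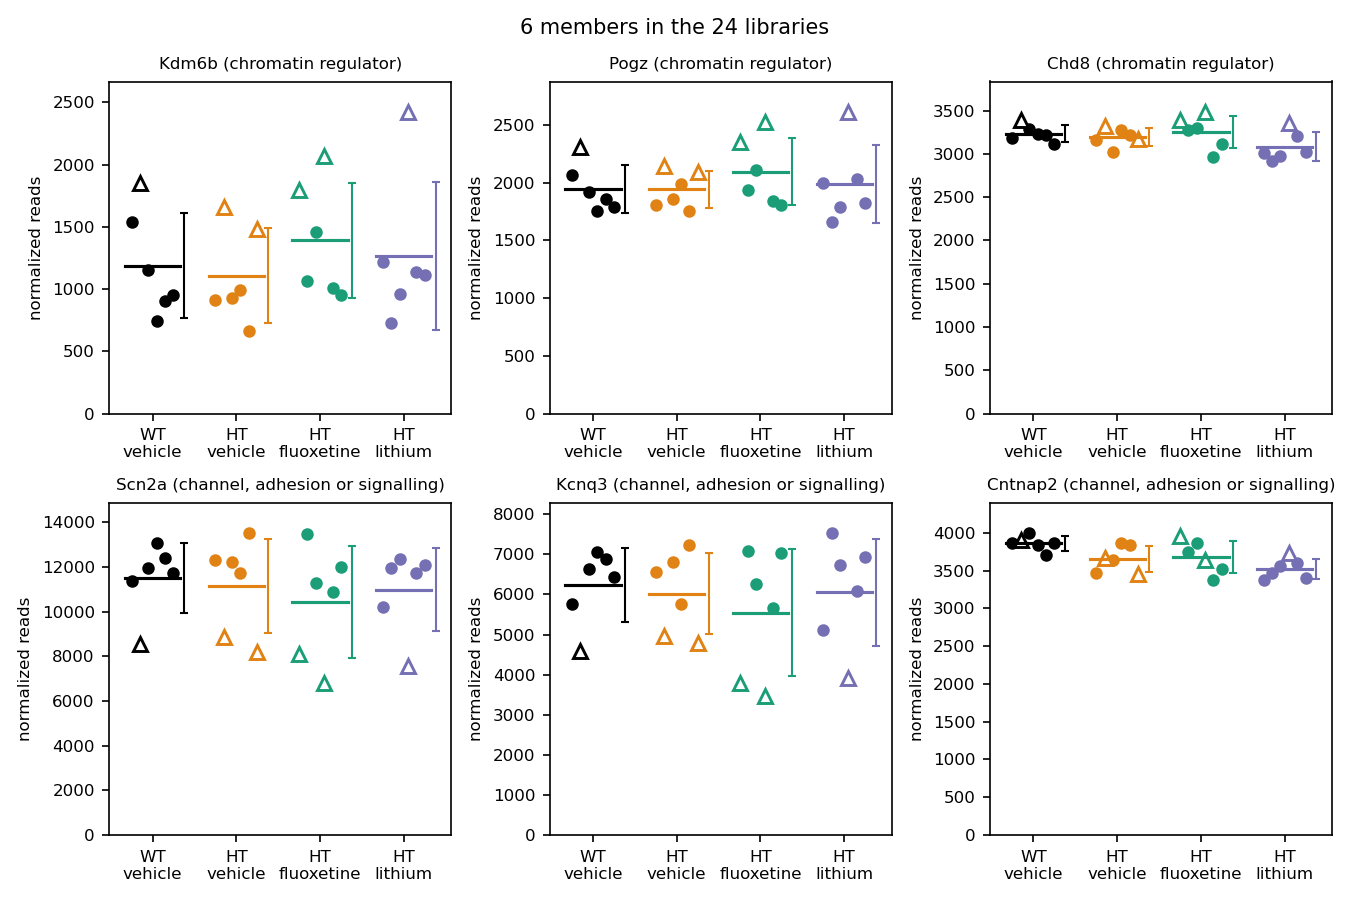
Normalized reads (y axis, from 0) of 6 members in the 4 arms. Points are the 24 libraries, open triangles the 6 bulb-high ones, horizontal lines arm means and bars 1 SD (n = 6). Within every arm the triangles are the highest values of Kdm6b and Pogz and the lowest of Scn2a and Kcnq3, while Chd8 and Cntnap2 vary little.

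Fluoxetine was compared with vehicle within HT mice. Again 0 of 39 members were called by limma (0.0119% of all genes, 2 in number), edgeR or DESeq2, and 1 had an unadjusted p under 0.05 (5.71% of all genes). Estimates were balanced, with 20 of 39 below 0 (50.5% of all genes) and a median of -0.0034. The class medians lay apart, which was not tested: the chromatin regulators had a median of 0.027 with 5 of 16 below 0, and the channel, adhesion and signalling genes -0.065 with 9 of 12 below 0. The 4 ion channels, which had a median of -0.13, were all below 0. The distance between the medians of these classes, 0.092, was 0.022 once the bulb score entered the fit. Leaving out single libraries it ranged from 0.012, without HT fluoxetine male 1, to 0.14, without HT vehicle female 2. It was 0.065 when the bulb-high libraries were left out, of which the fluoxetine arm and the HT vehicle arm each held 2. The bulb score itself averaged 0.36 ± 2.08 (SD) in the fluoxetine arm and -0.36 ± 2.03 in the HT vehicle arm.

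Wac, an adaptor for histone ubiquitination, had the smallest p. It ranged from 2718 to 3044 (median 2939) on fluoxetine and from 2600 to 2793 (median 2696) on vehicle, and all 6 fluoxetine libraries exceeded the vehicle mean, though the ranges overlapped. The log2 fold change was 0.11 ± 0.039 (adjusted p = 0.754, limma). Cul3 ranged from 3123 to 3783 (median 3523) on fluoxetine, above its vehicle median of 3173 (0.11 ± 0.058, adjusted p = 0.921). Katnal2 (-0.20 ± 0.11), Naa15 (0.10 ± 0.061) and Bcl11a (0.16 ± 0.097), a zinc finger transcription factor of cortical projection neurons, followed. No member was free of overlap between these arms (0.47% of all genes). For 23 of 39 the 95% interval lay within 1.2-fold.

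Lithium was compared with vehicle within HT mice, across the batch labels described above. None of the 39 was called by limma (0.0119% of all genes), edgeR or DESeq2, and 0 had an unadjusted p under 0.05 (2.75% of all genes). The median was -0.0081, with 22 below 0 (50.5% of all genes), and the class medians were -0.017 for chromatin regulators and -0.012 for channel, adhesion and signalling genes. With batch as a term the median over the 39 was -0.037 with 24 below 0. Outside the lithium arm only HT fluoxetine female 3 carried that batch label, so the term rested on this library alone. Without the 4 libraries high in striatal or choroid plexus genes the median was 0.0090 with 17 below 0. Asxl3 ranged from 465 to 645 (median 555) on lithium and from 448 to 574 (median 509) on vehicle (0.16 ± 0.087). Arid1b, a subunit of the BAF remodelling complex, ranged from 2419 to 2847 (median 2661) on lithium and from 2435 to 2694 (median 2476) on vehicle (0.074 ± 0.043). Katnal2 (-0.16 ± 0.11), Cntnap2 (-0.053 ± 0.037) and the helicase gene Chd8 (-0.053 ± 0.040) followed, and all 5 had an adjusted p = 1 in limma. In 27 of 39 the interval lay within 1.2-fold. No member was free of overlap (0.166% of all genes).

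**Figure D2:**
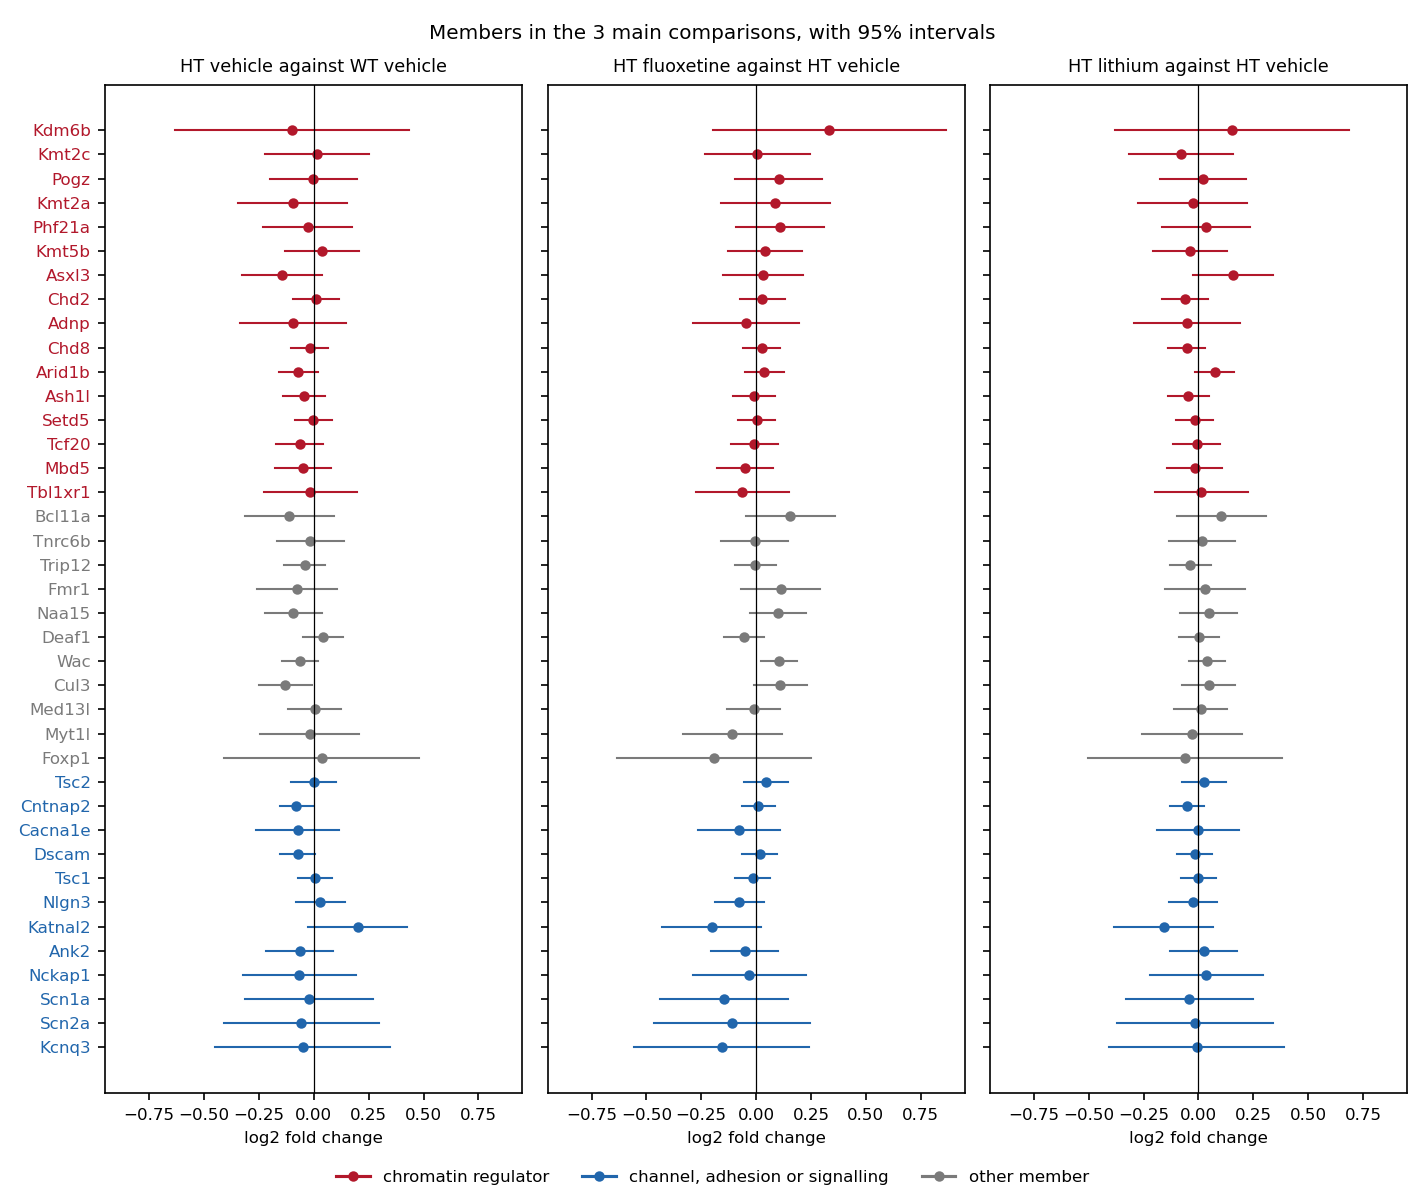
Log2 fold change (x axis) of the 39 members in the 3 main comparisons, with 95% intervals from limma over 24 libraries, in order of their slope on the bulb score within each class. Chromatin regulators are red, channel, adhesion and signalling genes blue and other members grey. The widest intervals belong to Kdm6b, Foxp1 and Kcnq3, and the narrowest to genes such as Cntnap2, Dscam and Tsc1.

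The drug-treated HT arms were also set against WT vehicle. These comparisons share the WT libraries with each other and with the genotype comparison, so their values are given side by side. Cntnap2 had the smallest p in each: it ranged from 3383 to 3954 (median 3689) on fluoxetine and from 3374 to 3737 (median 3513) on lithium, against 3703 to 3996 in WT. The log2 differences were -0.069 ± 0.037 (adjusted p = 0.964) and -0.13 ± 0.037 (adjusted p = 1, limma). The lithium and WT ranges of Cntnap2 met only between 3703 and 3737. Dscam followed against lithium, with 2454 to 2690 (median 2575) on the drug and a median of 2742 in WT (-0.090 ± 0.038, adjusted p = 1). Against fluoxetine, Cacna1e (a calcium channel gene, -0.15 ± 0.090), Mbd5 (of the methyl-CpG-binding domain family, -0.10 ± 0.061), Ank2 (-0.12 ± 0.073) and Dscam (-0.057 ± 0.038) came next. Against lithium, these were Ash1l (a histone methyltransferase, -0.090 ± 0.045), Chd8 (-0.071 ± 0.040) and Trip12 (a ubiquitin ligase, -0.079 ± 0.045). Members called numbered 0 in both (0% of all genes), and 0 and 2 had an unadjusted p under 0.05 (4.38% and 2.56% of all genes). No member was free of overlap in either (0.232% and 0.214% of all genes). For fluoxetine 26 of 39 were below 0 (50.8% of all genes) with a median of -0.022, and for lithium 27 (52.5% of all genes) with a median of -0.041. With the length slope as a covariate the fluoxetine median was -0.046 and the lithium median -0.000228. With batch as a term, which rested on HT fluoxetine female 3 alone, they were -0.035 and -0.070.

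Males and females were compared over all arms, 12 libraries each. No member was called (0.0832% of all genes, 14 in number), and 1 had an unadjusted p under 0.05 (2.59% of all genes). Over all 39 the median was -0.015, with 25 lower in males (51.5% of all genes). The 1 was Deaf1, a transcription factor gene, at 1340 to 1632 (median 1531) in males and 1321 to 1561 (median 1454) in females (0.077 ± 0.031, adjusted p = 1, limma). Neither X-linked member was called. Fmr1, which encodes an RNA-binding repressor of translation, had a median of 1999 in males and 2019 in females (-0.0045 ± 0.061). Nlgn3, a postsynaptic adhesion molecule, had medians of 3132 and 3217 (-0.049 ± 0.038). In the lists of related genes the X-linked Ddx3x, an autism risk RNA helicase, was lower in males by -0.25 ± 0.040 (adjusted p = 0.00678), as was Kdm6a, the X-linked paralog of Kdm6b (-0.42 ± 0.054, adjusted p = 4.94e-04).

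The effects were also compared between the sexes. For no member was a sex difference in the response to genotype, fluoxetine or lithium called (0 of 39 by limma in each, against 0% of all genes). In the fluoxetine comparison 32 of 39 estimates were lower in males than in females, with a median difference of -0.090 (52.3% and -0.0070 over all genes), and 2 had an unadjusted p under 0.05 (1.07% of all genes). Cntnap2 stood at 3743 to 3954 in HT fluoxetine females and 3383 to 3635 in males, and at 3463 to 3670 and 3460 to 3861 on vehicle (difference -0.18 ± 0.073, adjusted p = 1). The sexes did not overlap on fluoxetine for Cntnap2, which held for 5 of the 39 members and 4.49% of all genes. On vehicle this held for 0 members and 4.38% of all genes. Ash1l was 5094 to 5495 in HT fluoxetine females and 4220 to 5037 in males (-0.22 ± 0.091, adjusted p = 1). HT fluoxetine male 2 was the lowest library of that arm in Ash1l, Kmt2a (4185), Adnp (1350) and Cacna1e (6408).

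Members varied unequally among libraries of the same arm and sex. The within-group SD of log2 expression was 0.13 for the median member and 0.18 for the median gene. It was highest for Kdm6b (0.47), a demethylase that removes a repressive Polycomb mark, Foxp1 (0.39), a forkhead factor of cortical and striatal projection neurons, and Kcnq3 (0.35), a subunit of the potassium channel behind the M-current. The steadiest were Cntnap2 (0.053), Dscam (0.056) and Tsc1 (0.056), a restraint on mTOR signalling. Of the 39, 18 lay in the steadiest 25% of all genes and 10 in the steadiest 10%. Between the highest and lowest arm the mean differed by less than 10% in 29 members and by more than 20% only in Kdm6b.

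**Figure D3:**
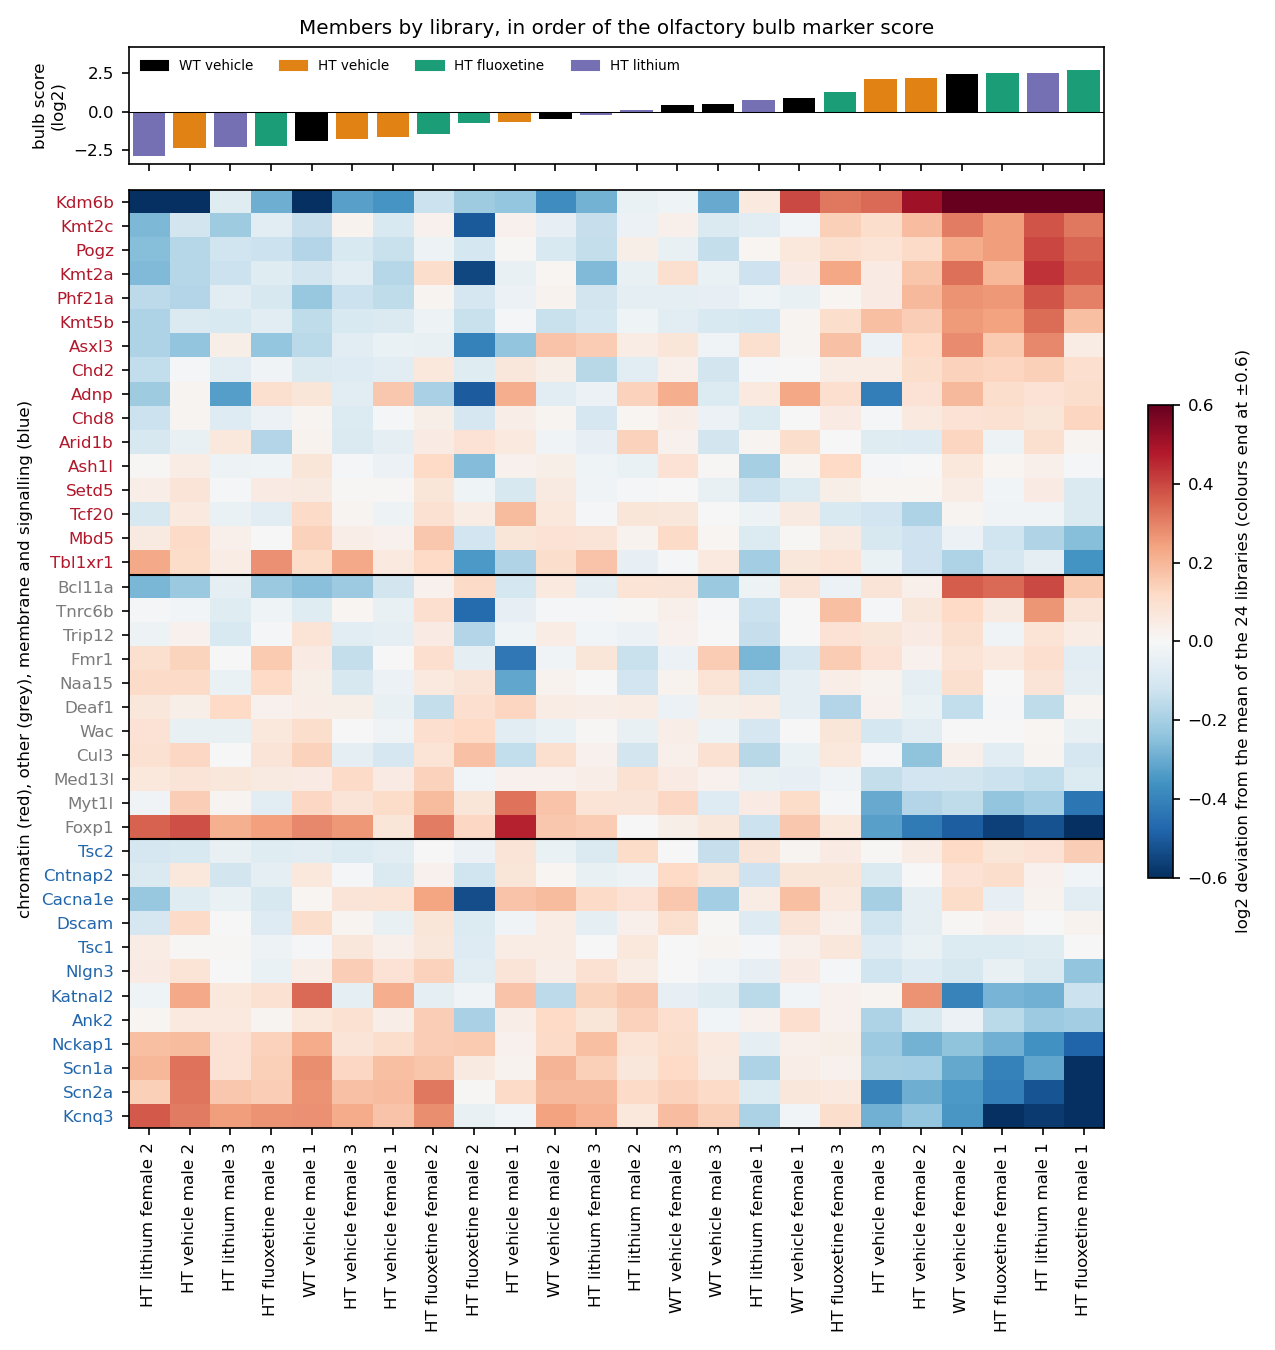
Log2 deviation of each member from its mean over the 24 libraries (colour, limited to ±0.6), with libraries in order of the olfactory bulb score shown as bars above in log2 units and coloured by arm. Rows are ordered by slope on the score within chromatin regulators (red names), other members (grey) and channel, adhesion and signalling genes (blue). In the 6 rightmost, bulb-high libraries the upper red rows are high and the lower blue rows low.

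Part of this spread followed the olfactory bulb score. With the score in the fit the median SD went from 0.128 to 0.083 over the members and from 0.182 to 0.135 over all genes. The slope of each gene on the score was fitted in limma beside the 8 group means, a result added after the data were seen. Over the 39 members 24 had a slope with an adjusted p under 0.05, against 54% of all genes, so the share was near the background. The direction was not shared by the classes. Of 16 chromatin regulators 9 were called higher with the score and 2 lower, and of 12 channel, adhesion and signalling genes 6 were called lower and 1 higher (over all genes, 26.8% higher and 27.1% lower). The median slope per unit of score was 0.025 for the chromatin regulators and -0.040 for the channel, adhesion and signalling genes. In bulk tissue, fewer cells of a type and less RNA per cell cannot be told apart.

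Among the chromatin regulators Kdm6b had the steepest slope. It ranged from 1480 to 2426 (median 1825) in the bulb-high libraries and from 665 to 1539 (median 977) in the other 18. The groups of libraries overlapped only slightly, and the slope was 0.22 ± 0.018 (SE; adjusted p = 1.15e-08). Pogz, a zinc finger protein that binds heterochromatin protein, ranged from 2095 to 2614 (median 2329) against 1657 to 2113 (median 1847), with a slope of 0.078 ± 0.0095 (adjusted p = 1.83e-06). The histone methyltransferase gene Kmt5b was 1804 to 2060 in bulb-high libraries and 1432 to 1754 in the others, with no overlap. Its slope was 0.063 ± 0.0092 (adjusted p = 1.20e-05). Phf21a, a histone reader of the CoREST complex, was also free of overlap, at 1316 to 1652 against 1087 to 1294 (0.074 ± 0.012, adjusted p = 2.54e-05). Kmt2c (0.078 ± 0.016), Kmt2a (0.076 ± 0.018), Asxl3 (0.062 ± 0.012), Chd2 (0.029 ± 0.0083) and Chd8 (0.020 ± 0.0071) were called higher too. Mbd5 (-0.047 ± 0.0070) and the corepressor subunit Tbl1xr1 (-0.061 ± 0.016) were called lower. Adnp, Arid1b, Ash1l, Setd5 and Tcf20 were not called.

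Among the channel, adhesion and signalling genes, 3 of the 4 ion channels were called lower with the bulb score. Kcnq3 ranged from 3457 to 4968 (median 4254) in the bulb-high libraries and from 5112 to 7529 (median 6684) in the others, with a slope of -0.16 ± 0.017 (adjusted p = 5.33e-07). Scn2a ranged from 6798 to 8845 (median 8167) against 10223 to 13515 (median 11981), with a slope of -0.14 ± 0.016 (adjusted p = 6.52e-07). Scn1a, a sodium channel important in inhibitory interneurons, ranged from 3022 to 4019 against 4055 to 5774 (-0.12 ± 0.013, adjusted p = 1.06e-06). Nckap1 ranged from 10063 to 12071 against 13494 to 16380 (-0.10 ± 0.012, adjusted p = 2.06e-06). None of these 4 overlapped between the bulb-high and other libraries. Nlgn3 (-0.038 ± 0.0072) and Ank2 (-0.045 ± 0.011) were called lower with overlap. Tsc2, the partner of Tsc1, was called higher (0.029 ± 0.0078). Its exons share 693 bases with those of Pkd1 on the opposite strand, and the exons of Ash1l, Mbd5, Kmt2a, Myt1l, Ank2 and Wac share 136 to 633 bases with opposite genes. Whether counting used the strand is not given in the sources used here, so such reads may be shared. Cacna1e, Cntnap2, Dscam, Katnal2 and Tsc1 were not called.

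Of the other members Foxp1 had the steepest slope. It ranged from 1066 to 1584 (median 1398) in bulb-high libraries and from 1822 to 2742 (median 2228) in the others, with no overlap (-0.18 ± 0.019, adjusted p = 4.06e-07). Myt1l, a neuronal repressor of non-neuronal genes, ranged from 5717 to 6931 in bulb-high libraries and from 7300 to 9664 in the others (-0.073 ± 0.016). Med13l, of the Mediator kinase module, ranged from 3157 to 3300 against 3376 to 3845 (-0.043 ± 0.0072). Cul3 (-0.029 ± 0.010) and Wac (-0.018 ± 0.0072) were called lower and Bcl11a (0.070 ± 0.013) higher. In all, 9 members did not overlap between bulb-high and other libraries, 2 chromatin regulators that were higher (8.46% of all genes) and 4 channel or signalling genes and 3 others that were lower (9.91% of all genes, 18.4% in either direction).

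**Figure D4:**
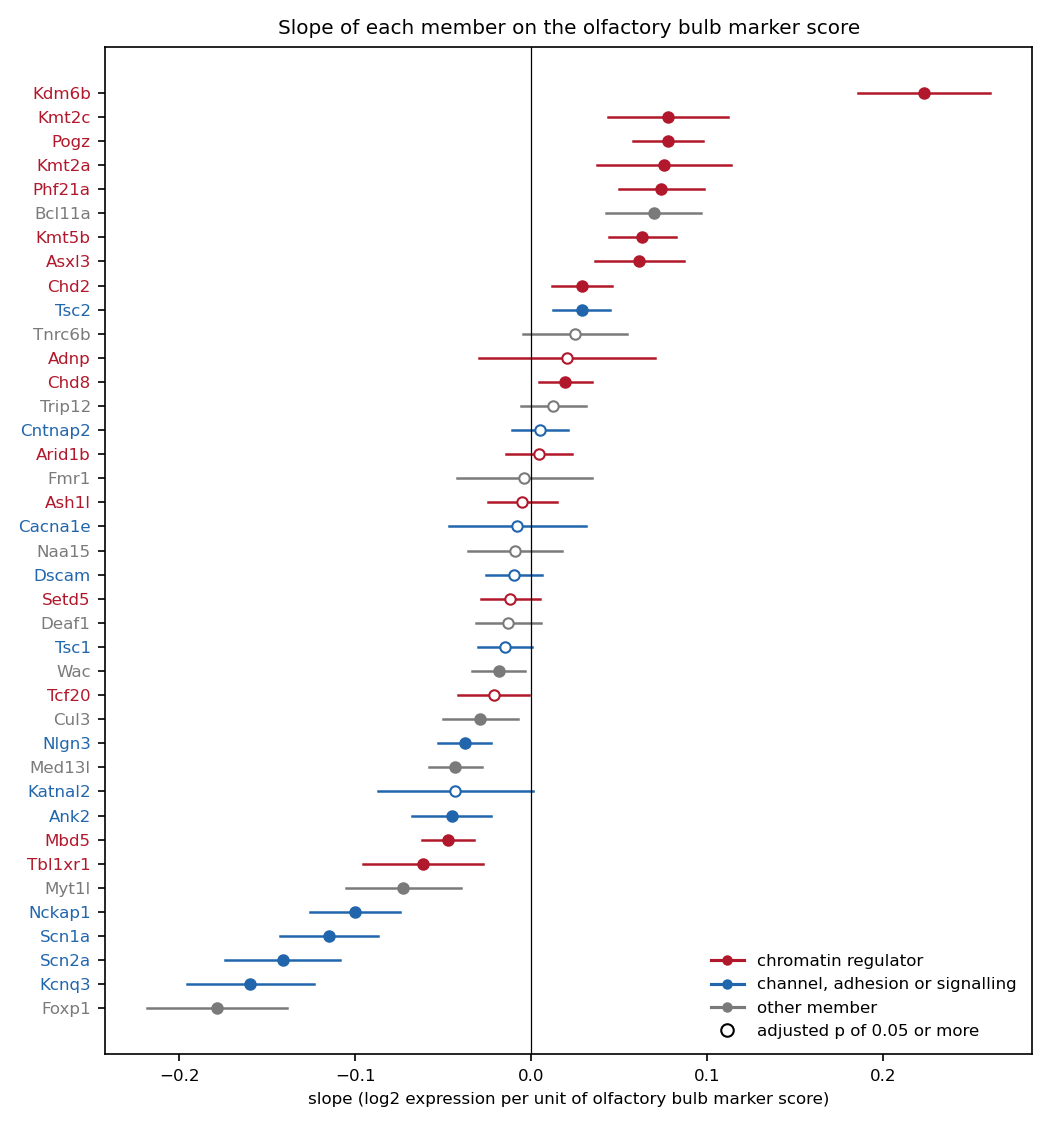
Slope of each member (x axis, log2 expression per unit of bulb score) with 95% intervals from limma over 24 libraries. Filled points have an adjusted p under 0.05. Most red points (chromatin regulators) lie right of 0 and most blue points (channels, adhesion and signalling) left of it, between -0.18 for Foxp1 and 0.22 for Kdm6b.

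Other cell markers moved with the same libraries. The score of 10 excitatory neuron markers was -0.58 to -0.29 in the bulb-high libraries and -0.011 to 0.24 in the others, without overlap. Neurod6, a factor of excitatory cortical neurons, stood at 917 to 1318 against 1546 to 2549. The score of 10 inhibitory markers overlapped, but Gad1 (19135 to 25973 against 5871 to 13685) was higher and Lhx6 (132 to 237 against 325 to 522), a factor of cortical interneurons, lower. Immediate early, astrocyte, microglial and oligodendrocyte scores overlapped. Striatal projection neuron markers, whose score was -0.63 to -0.41 in the bulb-high libraries, reached 2.31 in the others, and without the 4 libraries high in striatal or choroid plexus genes the slope of Foxp1 was -0.18. All 12 bulb markers were measured, and their sum ran from 4994 to 48539 in HT fluoxetine, 3642 to 43444 in HT lithium, 4836 to 34358 in HT vehicle and 5260 to 41473 in WT vehicle. The part of each in the members' slopes was not tested.

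Within the 18 libraries that were not bulb-high, 6 members kept a slope with an adjusted p under 0.05: Kdm6b (0.16 ± 0.030, adjusted p = 0.00722), Pogz (0.056 ± 0.013, adjusted p = 0.0265), Kcnq3 (-0.11 ± 0.021, adjusted p = 0.00795), Foxp1 (-0.089 ± 0.019, adjusted p = 0.0162), Scn1a (-0.075 ± 0.019, adjusted p = 0.0312) and Scn2a (-0.063 ± 0.016, adjusted p = 0.0394). Among all genes the calls fell to 1087. Each of the 6 had its sign in the full fit. Leaving out single libraries, the number of members called stayed between 22 and 25, while 7746 to 9426 of all 16825 genes were called. Of the 24 called, 21 were called under every alternative but the removal of all 6 bulb-high libraries. Chd8 lost its call without HT fluoxetine male 1, HT lithium male 1, HT lithium male 3 or HT vehicle female 2. Cul3 lost it without HT fluoxetine male 1, HT vehicle female 2 or HT vehicle male 2, and Wac in 10 of the 24 such fits. Of 12 other alternatives, Chd8 lost its call in 2, Cul3 in 1 and Wac in 5. Among the 15 members not called, 6 gained a call in some alternative: Deaf1, Katnal2, Tcf20, Tnrc6b, Trip12 and Tsc1.

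**Figure D5:**
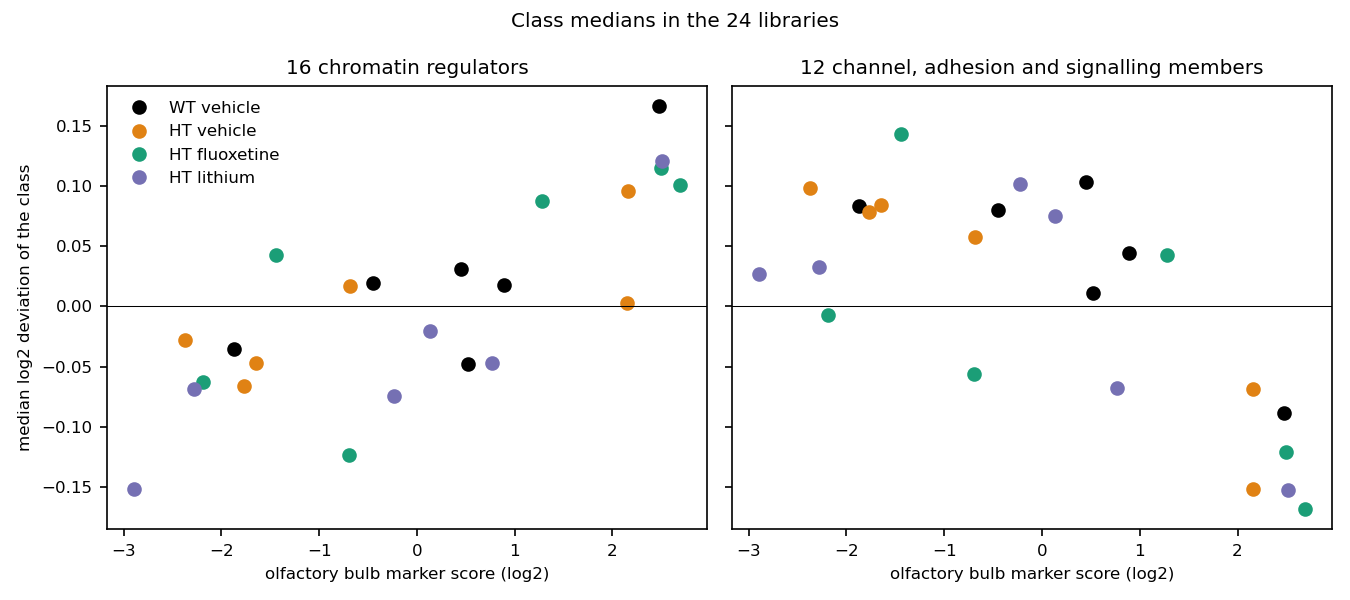
Median log2 deviation (y axis) of the 16 chromatin regulators (left) and of the 12 channel, adhesion and signalling genes (right) in each library, against its olfactory bulb score (x axis). Each point is 1 of 24 libraries, coloured by arm. At scores above 2 the left medians are above 0 and the right ones below 0, in all 4 arms.

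Library by library, the chromatin median exceeded the membrane median in 6 of 6 bulb-high libraries, by 0.16 to 0.27 on the log2 scale. In the other 18 it did so in 2, with differences of -0.18 to 0.044. Deviations were taken from each gene's mean over the 24 libraries, so high differences in the 6 go with low ones in the 18. These counts restate the slopes and are no separate support. The bulb-high libraries were spread as 2 in HT fluoxetine, 2 in HT vehicle, 1 in HT lithium and 1 in WT vehicle. Not all variation followed the score: Adnp (within-group SD 0.21), Cacna1e (0.16), Fmr1 (0.16) and Tnrc6b (0.13), a factor of microRNA silencing, spread without a called slope. The SD left after the score ran from 33.3% of the SD before it in Kdm6b to 103% in Fmr1, and was 43.1% in Pogz.

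Promoters are shown for 3 members called on the score. They were chosen after their sequences were seen to show high, middling and low numbers of CpG, the base step that DNA methylation acts on. RefSeq windows on GRCm38.p6, from 250 bases before to 50 after a start, matched 30 of the 39 members, with 47 windows in all. The ratio of observed to expected CpG exceeded 0.6 in 9 of 10 windows (90%) of the 8 matched members called higher with the score, and in 7 of 20 (35%) of the 9 called lower. Myt1l gave 5 of those 20 windows and Ank2 gave 4. Counted by gene, all 8 of the former and 7 of the 9 latter had such a window, all but Scn1a and Scn2a (68.3% and 74.2% over all genes tested). Over all genes tested the shares were 61.2% of windows of genes called higher and 64.4% of those called lower. The difference between these shares was not tested. The 200 bases before the start follow, 5′ to 3′, with each CG in capitals. Kmt2c lies on the minus strand at chr5:25498784-25498983, Pogz on the plus strand at chr3:94837237-94837436 and Scn2a on the plus strand at chr2:65620569-65620768. None of the 3 stretches overlaps a gene in GENCODE M21. They hold 39, 11 and 2 CG steps, at ratios of observed to expected CpG of 0.98, 0.89 and 0.40.
Kmt2c: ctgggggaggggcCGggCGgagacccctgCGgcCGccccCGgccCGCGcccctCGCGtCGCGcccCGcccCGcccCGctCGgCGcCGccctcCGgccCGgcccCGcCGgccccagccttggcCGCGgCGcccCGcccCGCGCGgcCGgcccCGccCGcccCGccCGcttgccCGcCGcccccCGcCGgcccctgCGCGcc
Pogz: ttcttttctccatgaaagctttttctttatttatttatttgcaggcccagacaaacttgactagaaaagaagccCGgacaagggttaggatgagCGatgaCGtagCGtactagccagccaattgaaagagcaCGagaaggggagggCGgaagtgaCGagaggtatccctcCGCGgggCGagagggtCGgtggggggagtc
Scn2a: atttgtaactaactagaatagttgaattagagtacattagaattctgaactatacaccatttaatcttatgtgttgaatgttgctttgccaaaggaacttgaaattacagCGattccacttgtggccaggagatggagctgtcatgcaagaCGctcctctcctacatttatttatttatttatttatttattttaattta

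Known promoter motifs were searched on both strands of the same windows. The shares of all windows given beside them cover 32851 windows, not only those of genes tested. They are thus a background unlike that of the CpG shares above. TATAAA occurred in 6.38% of the 47 member windows, a single window each of Ank2, Phf21a and Scn2a (13.6% of all windows). The Scn2a match lay in its window at chr2:65668436-65668735, not in the window of the stretch shown. CCAAT occurred in 27.7%, Pogz and Scn1a among them (37.4% of all windows). CACGTG occurred in 10.6% (7.15% of all windows) and TGACGTCA in 0% (1.79%). A match is a description of letters only.

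Genes related to the members were taken from lists chosen by function. Of 60 other autism risk genes 0 were called between HT and WT on vehicle, with 45 below 0 and a median of -0.033 (51.3% below 0 over all genes). Of 34 membrane and signalling partners or paralogs 28 were below 0 (median -0.035), and of 32 nuclear ones 19 (median -0.029), again with 0 called. Smallest p-values belonged to Dpy30, a subunit of the methyltransferase complexes of Kmt2a and Kmt2c (0.18 ± 0.054, adjusted p = 1, limma), and Fxr1, a paralog of Fmr1 (-0.11 ± 0.045, adjusted p = 1). Under fluoxetine Fxr1 (0.15 ± 0.045, adjusted p = 0.606) and Rcor1, a CoREST subunit and partner of Phf21a (0.20 ± 0.060, adjusted p = 0.592, limma), came nearest, and 0 were called in any list under fluoxetine or lithium. With the bulb score 36 of 60 other autism genes were called, 20 higher and 16 lower (over all genes 54% called, 26.8% higher and 27.1% lower). Nuclear partners had 13 of 32 called higher and 2 lower, and membrane and signalling partners 6 of 34 higher and 19 lower. Kcnq5 (-0.16 ± 0.017) was among those called lower, and Kmt5c, the paralog of Kmt5b, was among the nuclear partners called higher (0.12 ± 0.020).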

How the data were processed

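Messenger RNA of prefrontal cortex was profiled in 24 libraries, with a stranded polyadenylated-RNA kit per the labels' protocols. The deposited values are a normalized signal per gene, given by the authors for 18240 Ensembl genes. Salmon 0.11.2, DESeq2 1.19.11, R 3.6.0 and the build GRCm38 are named in the submitters' processing notes, with no role or order. In each library the deposited values were whole multiples of 1 read's worth (100% within 0.01 of a read), so reads were recovered. GENCODE M21 gave symbols for 18227 genes.

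In R 4.3.3, limma 3.58.1 (trend option) was run on log2(value + 1) of 16825 genes whose mean was at least 10, with 8 group means, equal weight for the sexes and Benjamini-Hochberg adjustment over all genes. A fold change on this scale understates the change of low genes. edgeR 4.0.16 (quasi-likelihood) and DESeq2 1.42.0 on the recovered reads, other pseudocounts, filters, scalings, covariates and left-out libraries were alternatives. The steps were tested on simulated data. The members and lists were chosen with earlier results of these data known.

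In each comparison the members described are those called or, if under 5 were called, the 5 with the smallest p. From related lists they are taken from those called or, if none was, from the 3 with the smallest p, and some are not reported here. Motif and CpG content were chosen after the data were seen. Levels per kilobase use the union of exons.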

Additional observations from a re-analysis of the deposited data

Results flagged for a closer look

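Within arms of 6 libraries, the highest or lowest value of a gene was set against the rest with Dixon's criterion. Chance passes it in about 1 of 20 such checks. The 160 checks, each of 1 gene in 1 arm, share libraries and are not independent. The criterion was met 11 times. HT lithium male 1, the bulb-high library of its arm, was involved in 7. It was the highest lithium library in Kmt2a (8249, others 5078 to 5928), Kmt2c (4439, others 2830 to 3326), Kmt5b (2060, others 1432 to 1599), Kdm6b (2426, others 731 to 1219), Phf21a (1652, others 1143 to 1252) and Tnrc6b (4966, others 3778 to 4148). In Deaf1 it was the lowest (1340, others 1534 to 1618). WT vehicle female 2, the bulb-high library of the WT arm, was highest in Kmt2c (4214, others 3095 to 3486).

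HT fluoxetine male 2 was lowest in Tnrc6b (2998, others 4049 to 4671). HT lithium female 1 was lowest in Ash1l (4407, others 4920 to 5167), and HT vehicle male 1 was highest in Arid1b (2694, others 2435 to 2509).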

How the results depend on the processing

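No alternative and no left-out library gave a called member between arms, sexes or in a sex difference: all counts stayed at 0, also with the replicate number as a block (0 called). The median of the 39 for HT lithium against WT moved from -0.041 to -0.000228 with the length slope as covariate. Without the 6 bulb-high libraries the members called on the bulb score numbered 6 in place of 24, the chromatin regulators called higher 2 in place of 9 and the channel, adhesion and signalling genes called lower 3 in place of 6, and Myt1l had a slope of 0.000115 (adjusted p = 0.998). Fewer libraries and a narrower range of scores entered that fit. The shares of all genes called higher or lower in it are not reported here. The bulb score slopes and their alternatives were chosen after seeing the data. In the slope fit the block called 22 members, edgeR 23 and DESeq2 24. The shares of all genes called in these alternatives are not reported here, so these counts are not set against a background. The main limma fit called 54% of all genes, so the members' share was near the background there. Same-numbered HT and WT vehicle libraries deviated together with correlations from -0.157 to 0.591, so the numbers were not taken as pairs.

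Leaving out each library in turn, medians ranged from -0.054 to -0.018 for genotype, -0.013 to 0.026 for fluoxetine, -0.023 to 0.010 for lithium, -0.044 to -0.013 and -0.049 to -0.017 for HT fluoxetine and HT lithium against WT, and -0.024 to -0.0054 for males against females. Chromatin minus membrane medians ranged, in the same order, from -0.046 to 0.055, 0.012 to 0.14, -0.062 to 0.044, 0.012 to 0.12, -0.085 to 0.060 and -0.047 to 0.018. Chromatin regulators called higher on the score ranged from 8 to 9 and membrane genes called lower from 6 to 7. Over all genes, 7746 to 9426 were called in these fits in either direction, and their shares by direction are not reported here. The lithium comparisons could not be run within 1 batch, since all lithium libraries carry the other label. The intervals given are ranges of change compatible with these libraries and are no limit of detection. With 6 libraries an arm, changes of members inside them may have been missed.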

Other observations

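Among the other autism risk genes called on the olfactory bulb score were Reln, a secreted guidance protein of cortical layers, and Chd7, a remodeller of the family of Chd8 and Chd2. Reln (slope 0.29 ± 0.026, adjusted p = 6.11e-08, limma) and Chd7 (0.24 ± 0.023, adjusted p = 1.40e-07) were higher with the score. Myt1, a paralog of Myt1l, was higher (0.22 ± 0.017, adjusted p = 7.25e-09), whereas Myt1l was lower (-0.073 ± 0.016, adjusted p = 6.66e-04). Whether the slopes of these paralogs differ was not tested.

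On the slope of each library against transcript length, 0 of the 39 members were called by limma (0% of all genes), with 9 at an unadjusted p under 0.05 (9.9% of all genes). The smallest p belonged to Setd5 (adjusted p = 0.161, limma), which was not called on the bulb score.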
